A study of Mus musculus with 17 samples.

Results

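At postnatal day 18 (P18), 618 of the 3020 BRG1 peaks in mouse spermatogenic cells lay off common H3K27ac regions of postnatal day 12 (P12). They made up 20.5% of the P18 peaks on chromosomes 1 to 19 (95% exact Clopper-Pearson interval 19.04 to 21.95). These peaks were selected on measured values: each was called at P18 and shared not a single base with any common region. Common regions are the P12 H3K27ac regions that the authors listed as present with and without Brg1. With regions that changed without Brg1 counted as well, 616 P18 peaks lay off H3K27ac. The remaining 2402 P18 peaks, which touched a common region, are called the acetylated P18 peaks here. BRG1 was precipitated with MNase-digested chromatin from wild type CD1 testes. Cells for the BRG1 and H3K27ac libraries were fixed in 0.3% formaldehyde for 30 min at 4 °C. Each age had 2 libraries of the precipitate and 2 of input. H3K27ac was precipitated at P12 in mice of mixed background, from 2 Brg1WT and 2 Brg1cKO libraries. In the Brg1cKO, Brg1 was removed with Mvh-cre, a Cre that acts in germ cells. Cells were passed through a sieve and the labels name no sort by stage, so a list can hold a mixture of spermatogenic cells. Each BRG1 list stands for both libraries of its age together, and read depth is not known from region lists. No value below therefore has an error between replicates. Intervals cover counting error only, and p-values describe lists of regions, which are not replicates of an age. All Fisher's tests are two-sided.

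SWI/SNF is a remodelling complex driven by the ATPase BRG1. It slides and evicts nucleosomes to open DNA at promoters and enhancers. Acetylation of histone H3 at lysine 27 marks active forms of both elements, and it sits on the nucleosomes that flank the bound factors. In the testis, germ cells enter meiosis during the second postnatal week, and pachytene spermatocytes become abundant in the third. A BRG1 site without acetylation can be compared only with the mark at P12, because H3K27ac was not measured at P18. Positions are in build mm9, counted from 1. Genes and sequences at these positions were not analysed here.

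The 10 strongest peaks of the set all lay within 1.28 kb of acetylated chromatin and at a BRG1 site of P12. Of all 618, 49.7% lay within 1 kb of acetylated chromatin and 91.3% at a BRG1 site of P12. Peak strength is the −log10 q value of the authors' peak caller, a measure of confidence that is used only to rank peaks within 1 list. The strongest, chr7:135111057-135111336, reached 7.9975, which was also the highest value in the whole P18 list. It was 280 bp wide and lay inside a P12 peak of 1939 bp with a −log10 q of 8.22. The nearest acetylated regions began 1405 bp to its left and 1166 bp to its right, so both the P18 and the P12 peak stood in a stretch without the mark. The next strongest was chr4:137149793-137150443 at 5.62, with acetylated regions 620 bp to the left and 1646 bp to the right. A similar arrangement was seen at chr14:79248826-79249324, where the peak of 5.22 had acetylated regions 984 and 381 bp away on its sides.

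Other strong peaks lay much nearer to an acetylated region on one side than on the other. At chr13:81025007-81025266, with a strength of 5.25, the mark began 230 bp to the right, under the same P12 peak. At chr3:145600450-145601202 the peak had a strength of 5.18 and lay 172 bp from the region on its right, while the nearest one on its left was 7487 bp away. At chr11:82577517-82577743 the strength was 5.01 and the gaps were 299 and 6433 bp. The narrowest of the 10 strongest, chr1:158869986-158870056, was 71 bp wide with a strength of 4.88. A second P18 peak on its left, under the same P12 peak, did touch an acetylated region. The last of the 10 were chr7:100022936-100023285, chr2:29904184-29904684 and chr2:148498564-148498843, with strengths of 4.61, 4.55 and 4.54. All 10 overlapped a P12 BRG1 peak, as did 91.3% of all 618. The strengths of these 10 P12 peaks ranged from 4.597 to 9.69.

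**Figure D1:**
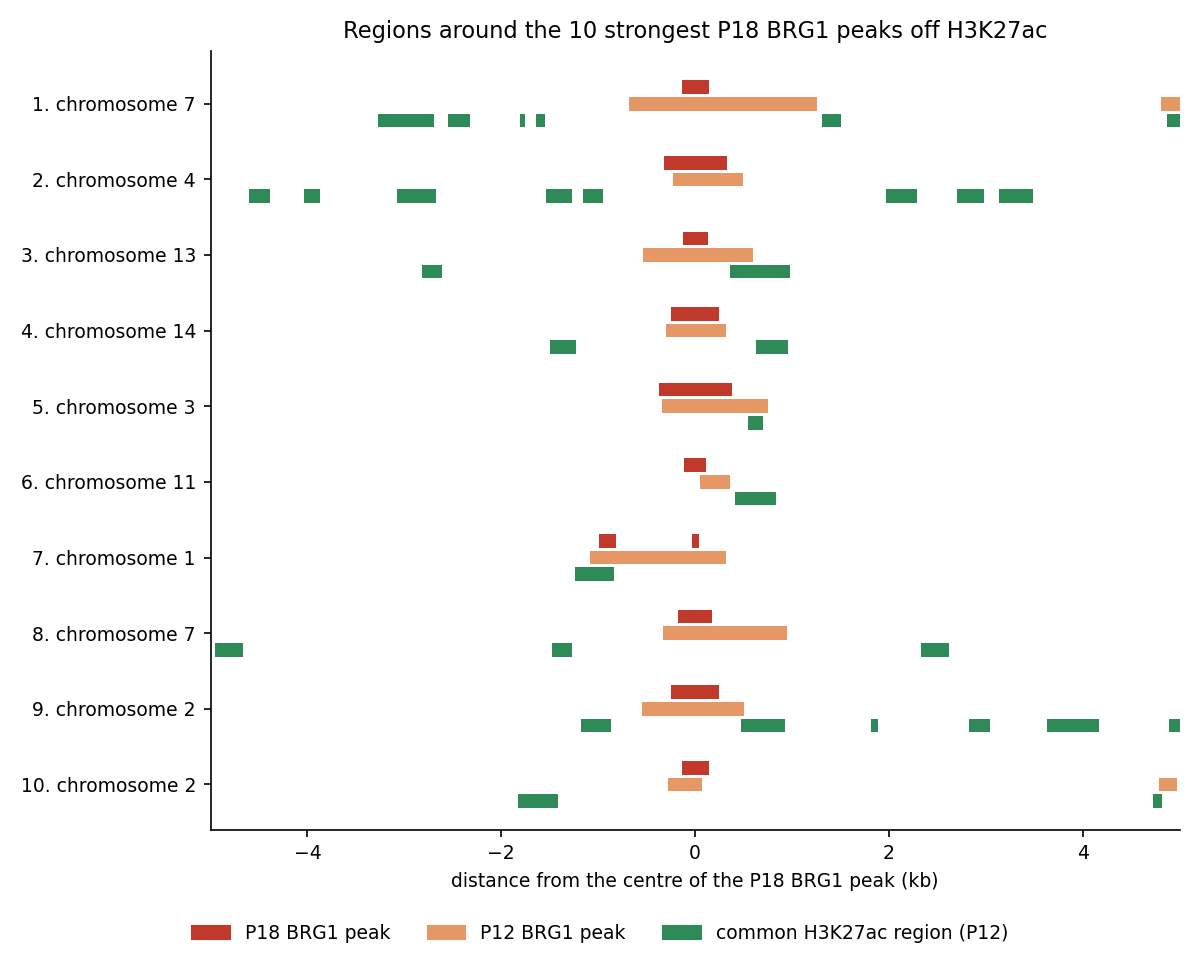
P18 BRG1 peaks, P12 BRG1 peaks and common H3K27ac regions within 5 kb of the centres of the 10 strongest P18 peaks off H3K27ac, ordered by strength from the top; the horizontal axis is the distance from the peak centre in kb. At each site a P12 peak overlaps the P18 peak, and an acetylated region begins between 172 and 1279 bp from its edge.

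Most of the 618 peaks lay near acetylated chromatin without touching it. The rule used this overlap, so distances are a description. The median gap to the nearest common H3K27ac region was 1.02 kb (0.824 to 1.21), with quartiles of 0.297 and 4.25 kb. Of the 618, 69 (11.2%) had an acetylated region within 0.1 kb, 307 (49.7%) within 1 kb, 484 (78.3%) within 5 kb and 545 (88.2%) within 10 kb. Regions on both sides within 1 kb were found for 65 peaks (10.5%), and within 5 kb for 220 (35.6%). Within 10 kb, 339 (54.9%) had them on both sides. At 1 and 5 kb fewer than 50% of the sites with an acetylated region had one on both sides, and at 10 kb more than 50% did. For 16 peaks (2.59%, 1.49 to 4.17), the regions on both sides carried the same name in the authors' list, read here as pieces of 1 region. An example is chr11:68908938-68909223, which lay between 2 such pieces, 45 and 55 bp from its edges. On that reading, the 16 were P18 sites within an interruption of a single acetylated region. Among the 7189 autosomal P12 peaks off H3K27ac and not found at P18, 13 (0.181%, 0.0963 to 0.309) lay between regions of the same name. The comparison is not like for like, because 15 of the 16 were among 211 sites whose P12 peak reached the mark. Of the 353 sites whose P12 peak was also off the mark, 1 (0.283%, 0.00717 to 1.57) lay between such pieces. Width is also tied to this count. Pieces of 1 name lay a median of 183 bp apart, and the 7189 P12 peaks had a median width of 535 bp.

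The edge of the rule separated peaks by very few bases. Just inside it were chr2:77655080-77655349 and chr4:55362428-55363300, whose edges touched an acetylated region with no shared base, and chr4:34561944-34562272, at a gap of 1 bp. Just outside it were chr4:138866364-138866809 and chr5:115607638-115608129, which shared 1 bp with an acetylated region, and chr8:91566843-91567147, which shared 2 bp. Their P18 strengths were 3.21, 2.22 and 2.60 inside and 1.93, 2.24 and 2.14 outside.

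**Figure D2:**
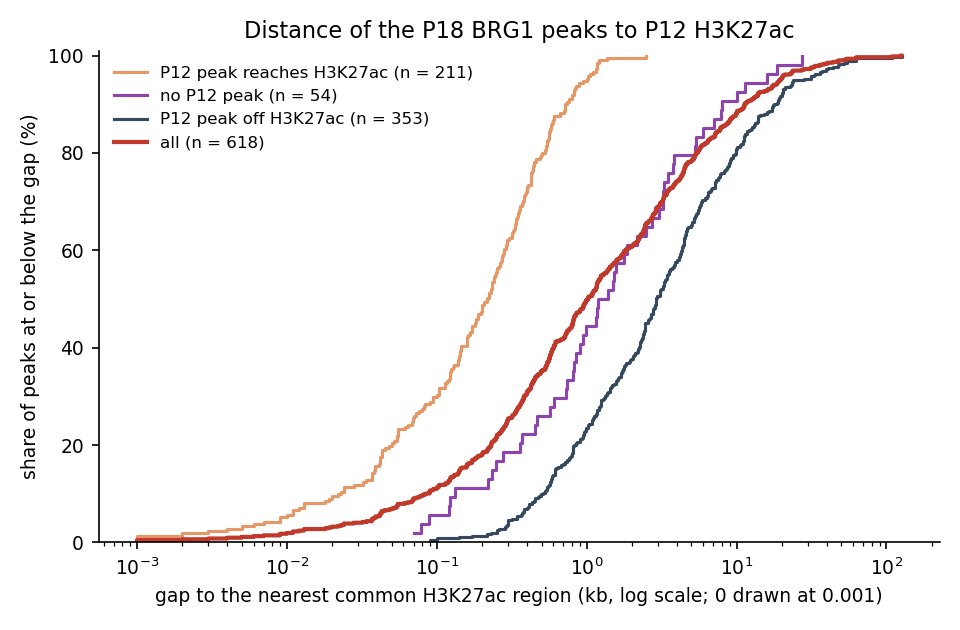
Cumulative share of the P18 peaks off H3K27ac (vertical axis, %) by the gap to the nearest common H3K27ac region (horizontal axis, kb, log scale), for all 618 peaks and for those whose P12 peak reaches H3K27ac, those whose P12 peak does not, and those with no P12 peak. The medians are 1.02 kb for all peaks and 0.217, 2.91 and 1.29 kb for the 3 classes.

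In the first kilobase around the 618 sites as a whole the mark covered a larger share of positions than around BRG1 sites that were off H3K27ac at P12 and not found at P18. This is a description without a test, and the comparison is not like for like, because 211 of the 618 had a P12 peak that reached the mark. Gaps also start at unlike edges, those of P18 peaks for the 618 and of P12 peaks for the others. From the centre of the 618 peaks outwards, the share inside an acetylated region rose to 11.97% (9.52 to 14.8) at 0.9 kb on the left and 12.5% (9.96 to 15.3) at 0.8 kb on the right. It was 4.69% and 5.02% at 5 kb on the left and right. For the 7189 autosomal P12 peaks off H3K27ac without a P18 peak, the share was 5.33% and 5.11% at the positions 0.9 and 0.8 kb from the centre, and 5.30% and 5.70% at 5 kb. An acetylated region lay within 1 kb of 28.4% (27.4 to 29.5) of those P12 peaks, against 49.7% (45.7 to 53.7) of the 618. Within 5 kb the shares were 66.4% and 78.3%, and within 10 kb 82.4% and 88.2%. For the 353 of the 618 whose P12 peak was also off the mark, the share within 1 kb of the P18 peak was 23.5% (19.2 to 28.3). For the 211 whose P12 peak reached the mark, that share was 94.8% (90.9 to 97.4). Measured from P12 edges, the median gap was 2.53 kb (2.108 to 3.10) for the 358 P12 peaks off the mark found at P18. It was 2.65 kb (2.518 to 2.775) for the 7189 not found.

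**Figure D3:**
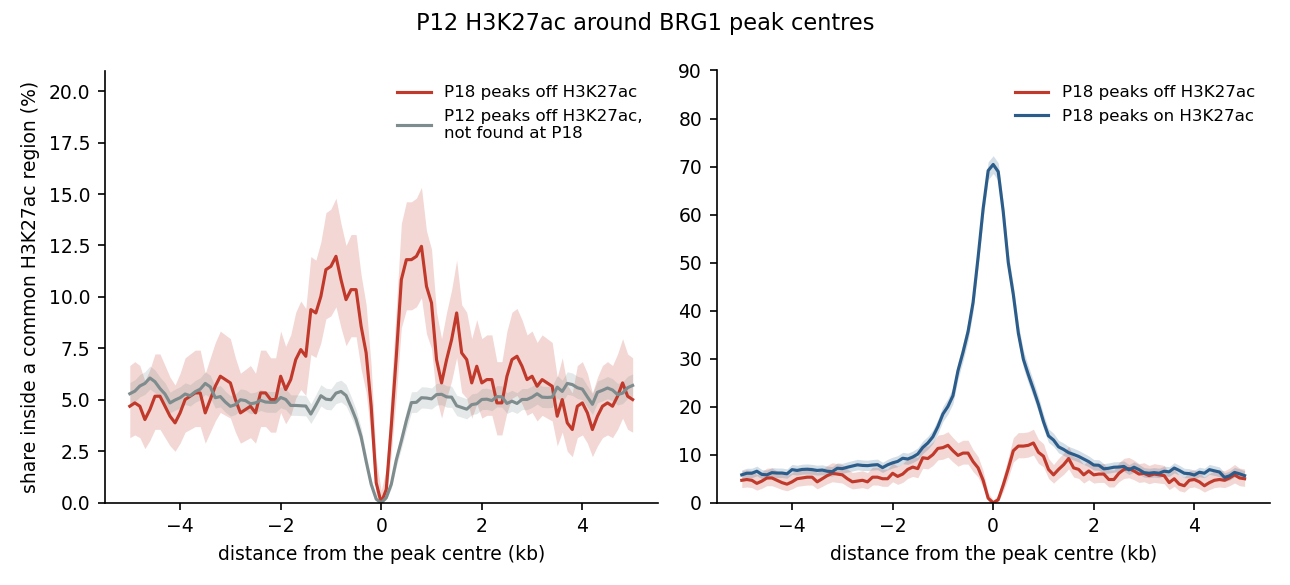
Share of peaks (vertical axes, %) whose position at a given distance from the centre (horizontal axes, kb) lies inside a common H3K27ac region, with 95% exact intervals as bands; the left panel sets the P18 peaks off H3K27ac beside P12 peaks off H3K27ac not found at P18, and the right panel sets them beside the acetylated P18 peaks. The shares at the centre are 0% for both sets off H3K27ac, by definition or by the rule, and a measured 70.4% for the acetylated P18 peaks. Shoulders of 11.97% and 12.5% stand within 1 kb of the P18 peaks off H3K27ac.

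A few sites lay far from any acetylated region. Each of the farthest 5 was also a P12 BRG1 site, as were 91.3% of all 618. Of the 618, 6 were more than 50 kb away. The farthest, chr1:66514493-66515013, lay 126 kb from the nearest acetylated region on one side and 132 kb on the other. It had a modest P18 strength of 1.83 but overlapped a P12 peak with a strength of 8.99. The next, chr13:117099798-117100246, lay 108 kb away, with strengths of 2.497 at P18 and 4.34 at P12. The others were chr8:30329976-30330126 at 63.1 kb, chr18:52688525-52688712 at 62.8 kb and chr1:97210270-97210664 at 54.4 kb. Their P18 strengths were 2.204, 3.06 and 2.502, and those of their P12 peaks 3.33, 3.76 and 7.63. At these 5 sites, remote from H3K27ac, BRG1 was listed at both ages. Strengths ran from 1.83 to 3.06 at P18 and from 3.33 to 8.99 at P12.

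Nearly all the sites off H3K27ac were already BRG1 sites at P12, though less often than the acetylated ones. A P12 peak was overlapped by 564 of the 618 (91.3%, 88.8 to 93.4) and by 2391 of the 2402 acetylated P18 peaks (99.5%, 99.2 to 99.8). Among all autosomal P18 peaks the share was 97.8%. The odds ratio was 0.0481 (0.0225 to 0.0938; adjusted p = 3.4e-27 by Fisher's exact test, 4 tests). This count was known from earlier results of these data when the test was chosen, so the p-value describes the difference and is not independent support for it. Compared within 4 groups cut at the quartiles of P18 width, the peaks had a Mantel-Haenszel odds ratio of 0.0624 (0.0318 to 0.122), and within quartile groups of P18 strength 0.0505 (0.0261 to 0.0977). In the narrowest group, 89.2% of the peaks off H3K27ac and 99.1% of the acetylated ones lay at a P12 peak. In the widest group the shares were 95.6% and 99.9%. P12 peaks enclosed the whole P18 peak in 475 of the 618 cases (76.9%).

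**Figure D4:**
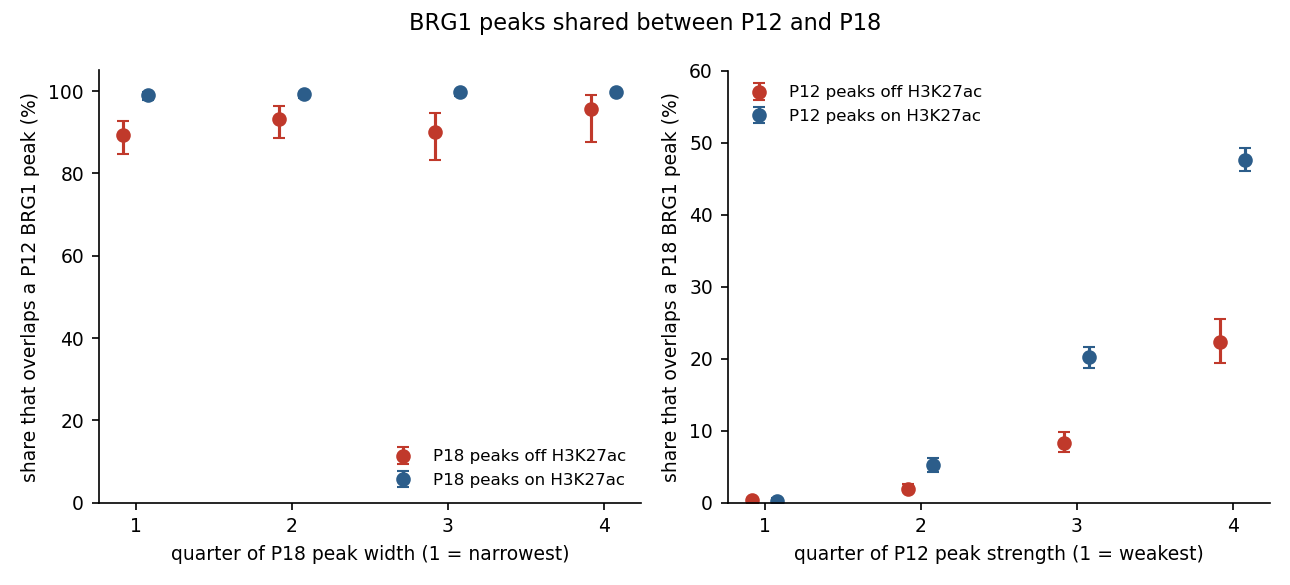
Left, share of P18 peaks that overlap a P12 peak, by quartile group of P18 peak width; right, share of autosomal P12 peaks that overlap a P18 peak, by quartile group of P12 strength (both vertical axes in %; points are shares, bars 95% exact intervals). In each group of width the share is lower off H3K27ac, from 89.2% to 95.6%, than on it, from 99.1% to 99.9%; in the strongest P12 group 22.4% of the peaks off H3K27ac and 47.6% of those on it are found at P18.

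By their P12 peak, the 618 sites fell into 3 classes. For 353 (57.1%), the strongest overlapping P12 peak was off H3K27ac as well. For 211 (34.1%), that P12 peak did reach an acetylated region, outside the P18 peak. The last 54 (8.74%) had no P12 peak. Among the 564 with a P12 peak, the share whose P12 peak reached the mark was 37.4% (33.4 to 41.6). Among all autosomal P12 peaks, 58.8% overlapped a common region. These shares are a description, because the rule left out every P18 peak that touched a common region and so lowered the first. Among the 2391 acetylated P18 peaks with a P12 peak, 2386 (99.8%) had one that reached the mark.

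The 211 sites were narrow parts of broader P12 peaks, but P18 peaks of the other classes were also narrower than their P12 peaks. For the acetylated P18 peaks the median widths were 475.5 bp at P18 and 1305 bp at P12. For the 211, the median P18 width was 250 bp (234 to 293) and the median P12 width 1404 bp (1311 to 1525). Their median gap to the mark was 0.217 kb (0.166 to 0.265). Of them, 200 (94.8%) lay within 1 kb of an acetylated region, and 15 of the 16 sites within an interrupted region were in this class. The 353 sites whose P12 peak was off the mark lay farther out, at a median gap of 2.91 kb (2.45 to 3.55). Their median P18 width was 329 bp (297 to 360), and that of their P12 peaks 938 bp (874 to 983). Gap, P12 width and the count of sites within an interrupted region are tied to how the classes were split. P18 strength, which did not enter the split, was at or above the median of the 618 in 107 of the 211 (50.7%) and 175 of the 353 (49.6%). The odds ratio was 1.05 (0.733 to 1.49; adjusted p = 1 by Fisher's exact test, 2 tests), so no difference was detected, and the interval allows either class to be the stronger.

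Of the 54 sites without a P12 peak, many lay close to one. A P12 peak was within 0.5 kb of 16 (29.6%), within 10 kb of 33 (61.1%) and within 50 kb of 45 (83.3%). The median gap was 3.46 kb (1.21 to 10.5). The strongest, chr11:53137813-53137991, had a −log10 q of 3.96 and lay 23.5 kb from a P12 peak and 0.728 kb from an acetylated region. The second, chr10:41023307-41023978 at 3.85, lay 0.257 kb from a P12 peak. The third, chr10:118568977-118569089 at 3.73, was the most distant of the 5 from BRG1 at P12, at 66.5 kb. It was followed by chr12:100158260-100158436 at 3.64 and by chr19:46469974-46470090, also at 3.64, which lay 0.219 and 1.38 kb from a P12 peak. No difference in P18 strength was detected between the 54 and the 564: 27 of 54 and 282 of 564 were at or above the median of the 618. The odds ratio was 1 (0.549 to 1.82; adjusted p = 1 by Fisher's exact test), an interval that also covers odds that differ by over 1.5 times either way.

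At P12 the sites off H3K27ac had weaker BRG1 peaks than the acetylated P18 sites. The median −log10 q of the P12 peak was 5.87 (5.70 to 6.06) for the 564, against 7.21 for the 2391. At or above the median of all these P12 peaks were 181 of 564 (32.1%) and 1297 of 2391 (54.2%). The odds ratio was 0.399 (0.326 to 0.486; adjusted p = 3.0e-21 by Fisher's exact test). The difference held within quartile groups of P18 strength, with an odds ratio of 0.425 (0.348 to 0.518), and within quartile groups of P12 width, at 0.403 (0.332 to 0.491). The sites were still in the upper part of the P12 list, where 481 of the 564 (85.3%) were at or above the median of all P12 peaks. The same held for 2300 of the 2391 acetylated P18 sites (96.2%). A few of the 564 were among the strongest peaks of the P12 list, up to a P12 strength of 15.8.

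The sites off H3K27ac were weaker at P18 as well. The median −log10 q was 2.28 (2.21 to 2.34) for the 618 and 2.46 (2.42 to 2.49) for the 2402. At or above the P18 median were 253 (40.9%) and 1257 (52.3%), an odds ratio of 0.631 (0.525 to 0.758; adjusted p = 7.0e-07 by Fisher's exact test). Within quartile groups of width it was 0.701 (0.583 to 0.843). Among P18 peaks with a −log10 q of at least 3, 110 lay off H3K27ac. There the odds ratio for strength at or above the median of these stronger peaks was 1 (0.651 to 1.54; p = 1 by Fisher's exact test).

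**Figure D5:**
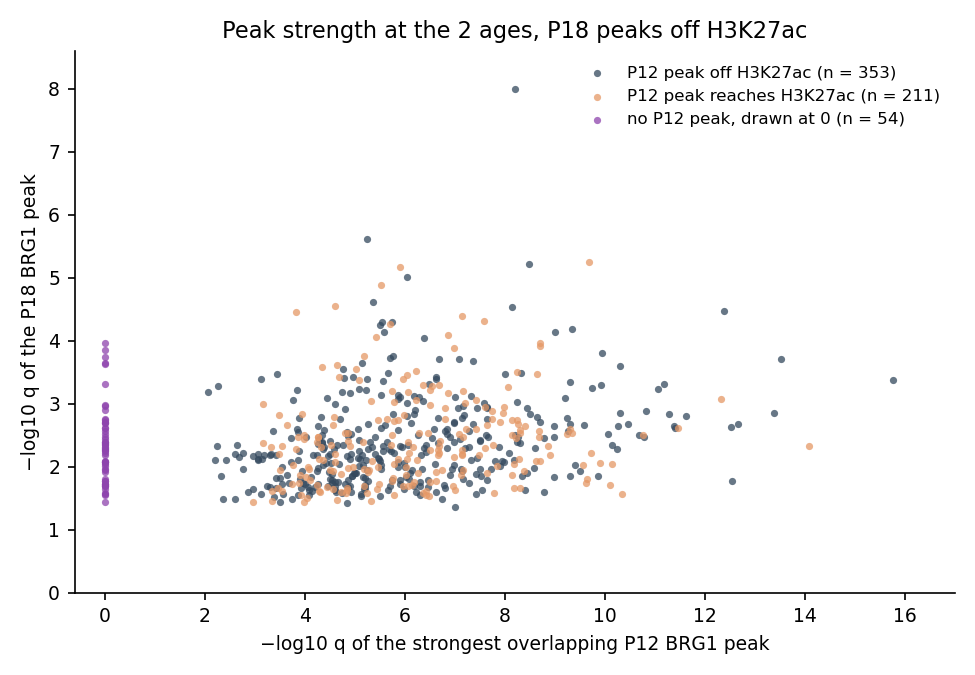
Strength (−log10 q) of each P18 peak off H3K27ac (vertical axis) against that of the strongest overlapping P12 peak (horizontal axis), coloured by whether the P12 peak reaches H3K27ac; the 54 peaks with no P12 peak are drawn at 0. The quartiles of the 618 at P18 are 1.87 and 2.75, and the P12 strengths run from 2.07 to 15.8.

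The P18 peaks off H3K27ac were also narrow, a property tied to the rule because a wide peak has more positions at which to meet a region. The median width was 296 bp (278 to 327), against 475.5 bp for the acetylated P18 peaks. The share of peaks off H3K27ac was 34.8% in the narrowest quartile group of P18 peaks and 9.01% in the widest. There were 22 peaks under 50 bp among the 618, and the narrowest was 4 bp wide. The widest, chr13:48356556-48358389, spanned 1834 bp with a strength of 3.41 and lay 4.54 kb from the mark. It was followed by chr13:101420786-101422299 at 1514 bp and chr16:57264366-57265841 at 1476 bp, the latter with no P12 peak within 7.57 kb. The other 2 of the 5 widest were chr18:32321977-32323409 and chr18:75120676-75122083, at 1433 and 1408 bp.

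Seen from P12, a BRG1 peak off H3K27ac was seldom found at P18, and those that were found were mostly strong. Of the 7547 autosomal P12 peaks off H3K27ac, 358 (4.74%, 4.27 to 5.25) overlapped a P18 peak. The share for all autosomal P12 peaks was 15.9%, and 23.6% for those on H3K27ac. Of the 358, 353 overlapped one of the 618 sites and the other 5 met acetylated P18 peaks alone. The 358 had a median P12 strength of 5.71 (5.475 to 6.0003), against 3.15 (3.11 to 3.18) for the 7189 not found. At or above the median of P12 peaks off H3K27ac were 334 of 358 (93.3%) and 3440 of 7189 (47.9%), an odds ratio of 15.2 (9.99 to 24.1; p = 6.7e-74 by Fisher's exact test). Within quartile groups of P12 width it was 10.4 (6.77 to 16.0). The dependence on strength was not particular to peaks off the mark. From the weakest to the strongest quartile group of P12 strength, the share found at P18 rose from 0.397% to 22.4% off H3K27ac. On H3K27ac it rose from 0.276% to 47.6%. The autosomal lists held 18336 peaks at P12 and 3020 at P18, which limits how many P12 peaks of any kind can be found.

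Among P12 peaks off the mark, the share found at P18 was similar near to and far from acetylation; the differences were not tested. Of P12 peaks with an acetylated region within 1 kb, 4.98% (4.10 to 5.98) were found at P18. The share was 4.55% (3.93 to 5.24) at gaps over 1 and up to 10 kb, and 4.95% (3.85 to 6.26) beyond 10 kb. In the strongest quartile group of P12 peaks the 3 shares were 23.6%, 21.4% and 23.0%, all within each other's intervals. In that group, 47.6% (46.0 to 49.2) of the P12 peaks on H3K27ac were found at P18.

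H3K27ac regions that changed without BRG1 were rare at P18 peaks of both classes. Changed regions lie outside common regions by construction, and the acetylated P18 peaks had a median of 75.6% of their length inside common regions. The rule thus leaves those peaks less room to meet a changed region, and the comparisons of the classes are a description. No gained region overlapped any of the 618 or lay within 1 kb (0 of 618, up to 0.595% by the exact interval). Among all autosomal P18 peaks 0.0331%, a single peak, had a gained region that near. Lost regions overlapped 2 of the 618 (0.324%) and 1 of the 2402 acetylated P18 peaks (0.0416%). At chr2:25995279-25995722, with a strength of 3.13, the P18 peak also overlapped a P12 peak of 2845 bp and a strength of 6.20. The other was chr10:118568977-118569089, the site described above with no P12 peak within 66.5 kb.

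A lost region lay within 1 kb of 6 of the 618 (0.971%, 0.357 to 2.10) and of 6 of the 2402 acetylated P18 peaks (0.2498%, 0.0917 to 0.543), against 0.397% of all autosomal P18 peaks. The odds ratio was 3.91 (1.04 to 14.7), which did not pass the adjusted test (p = 0.0214 by Fisher's exact test, adjusted p = 0.0857 with 4 tests). Within 10 kb the counts were 14 (2.27%) and 41 (1.71%), an odds ratio of 1.33 (0.667 to 2.52; adjusted p = 0.795 by Fisher's exact test). For gained regions within 10 kb they were 7 (1.13%) and 30 (1.25%), with an odds ratio of 0.906 (0.334 to 2.12; adjusted p = 1 by Fisher's exact test). The other 4 sites within 1 kb of a lost region, picked out after their values were seen, were chr1:88336502-88337025, chr9:59426131-59426389, chr11:69616567-69617339 and chr15:100592485-100592666. Each of these 4 overlapped a P12 peak, as did 91.3% of all 618. The P12 strengths at the 4 sites lay between 4.84 and 7.13.

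The sites lay on every autosome, and as many of them as of the acetylated P18 peaks, within counting error, had no P18 neighbour. Their share of the P18 peaks ranged from 15.1% on chromosome 3 to 30.2% on chromosome 13. None of the 19 autosomes passed the adjusted test (0%, Fisher's exact tests), and 1 had an unadjusted p under 0.05, chromosome 13 (35 of 116 peaks, p = 0.0131, adjusted p = 0.249). No other P18 peak lay within 50 kb of 462 of the 618 (74.8%) and 1778 of the 2402 (74.0%). The odds ratio was 1.04 (0.845 to 1.28; adjusted p = 0.757 by Fisher's exact test). Both classes had a median of 2 P12 peaks within 50 kb of the P18 centre. Common H3K27ac regions within 50 kb numbered a median of 12 (11 to 13) around the 618 and 16 (15 to 17) around the acetylated P18 peaks, which include the regions those peaks touch.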

How the data were processed

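The region lists are in build mm9. The submitters' processing notes name MACS2, Bowtie, Bowtie2, Picard, SAMtools and deepTools 2.5.2 without their roles. The authors deposited a −log10 q value for each BRG1 peak. Peak names in each BRG1 list carry a short tag and a threshold of 0.05, per the file contents. What the tag stands for and how libraries were merged were not given in the sources used here. H2AK119ub1 and input libraries were not analysed here. An overlap needed 1 bp, and a gap is the distance between edges. The P12 peak of a site is the strongest one it overlaps. Shares have exact Clopper-Pearson 95% intervals, and medians have order-statistic 95% intervals. Comparisons of classes used Fisher's exact tests (two-sided), Benjamini-Hochberg adjusted within a family, and with Mantel-Haenszel odds ratios (SciPy 1.17.1, statsmodels 0.14.6). The code was tested on simulated regions. The named sites were the 10 strongest, the 5 farthest from H3K27ac, the 5 strongest with no P12 peak, the 5 widest, those overlapping a changed region, and 3 on each side of the rule's edge; others were chosen after their values were seen. The sites, classes and tests were chosen with earlier results of these data known, among them that P18 peaks without a P12 peak seldom lie on H3K27ac. Sequence features were left out because no mm9 genome was used here. The alternatives changed the strength threshold, the overlap rule, the H3K27ac lists, merging, width, repeated names and distances.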

Additional observations from a re-analysis of the deposited data

How the results depend on the processing

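Alternatives gave 44 values, of which 31 either left the call and its direction as they were or moved the value by less than its interval. The share of P18 peaks off H3K27ac, 20.5%, was set by the rule. It was 16.3% at a −log10 q of at least 3, 17.9% among peaks at least 200 bp wide, 28.7% with regions of repeated name left out, 40.8% when 50% of the peak had to be acetylated, 44.0% when its centre had to be, and 10.3% when peaks within 1 kb counted as acetylated. In the last 4 of these settings the share whose P12 peak reached H3K27ac, 37.4%, became 44.5%, 69.5%, 71.8% and 3.91%, in that order. The odds ratio for P18 strength, taken at the median of the peaks kept, was 1 at a −log10 q of at least 3 (Fisher's exact test, p = 1). That for a lost region was 1.33 within 10 kb (unadjusted p = 0.398 by Fisher's exact test). That for having no other P18 peak nearby, 1.04 within 50 kb, was 0.811 within 10 kb (0.570 to 1.17), and neither passed the test. The odds ratios for overlap with a P12 peak and for P12 strength kept their direction and passed the test under all alternatives run. Regions of repeated name were read as pieces of 1 region and lie a median of 183 bp apart. Depth is not known from the lists, so a peak missing at one age is a peak not called there. No paired analysis was possible because each list pools both libraries of a group.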
